A study of Mus musculus with 72 samples.

Results

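Interleukins and their receptors were described across 6 whole-body radiation doses in mouse liver and lung. The members were all probes of the mRNA array whose transcript accession belongs to a mouse gene symbol that begins with Il and a digit, and which were well above background, by the scanner software's flag, on at least 1 of the 36 mRNA arrays. There were 105 such probes for 74 genes, out of 125 probes for 82 genes with such symbols on the array and out of 56605 non-control probes in all, of which 47376 were well above background on at least 1 array. The rule used no difference between doses or tissues, but it does keep a probe that is bright in a single array. The 8 genes with no probe above background were Il12rb2, Il17a, Il17f, Il1bos, Il20, Il23r, Il31 and Il9. Among the members, 39 probes were above background on all 18 liver arrays and 54 on all 18 lung arrays, while 23 were on no liver array and 7 on no lung array. The symbols also bring in a few genes that are not interleukins or their receptors, such as Il4i1, an enzyme that oxidises aromatic amino acids.

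Female C57BL/6 J mice of 6 to 8 weeks were sham irradiated (0 Gy) or given 1 whole-body exposure to X-rays at 1.05 Gy per minute, with dose groups from 1 and 2 Gy through 4 and 8 Gy up to 12 Gy, and liver and lung were taken 48 h later from 3 mice in each group. The groups carry no transgene and no other treatment, and every group was measured at this 1 time. Mice are named here by the sample number of the labels, which is shared by the liver and the lung sample. The labels do not say that the mice were irradiated or processed on separate occasions, so p-values measure the spread between these samples. Values are log2 fluorescence intensities after quantile normalization within a tissue, unless the joint normalization of both tissues is named, and differences are log2 differences against 0 Gy ± SE. A probe was called where the difference was above 1 in size and the limma p, adjusted by Benjamini-Hochberg over all probes tested, was below 0.05. The dose trend is the slope of a straight line over dose, given as the log2 change from 0 to 12 Gy.

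Interleukins are secreted proteins through which leukocytes, epithelium and other cells signal to each other. Most act through receptors built from a subunit that binds the ligand and a subunit that several receptors share, such as the common gamma chain (Il2rg) of the IL-2, IL-4, IL-7, IL-9, IL-15 and IL-21 receptors or gp130 (Il6st) of the IL-6 and IL-11 receptors, and pass the signal on through JAK kinases and STAT factors. The IL-1 family instead uses receptors with a shared accessory chain (Il1rap) and signals through MYD88 and NF-kappaB, and it is held in check by a receptor antagonist (Il1rn) and by decoys. Lymphocytes depend on IL-7 and IL-15 for survival, hepatocytes respond to IL-6 with acute-phase proteins, and IL-33 is stored in the nuclei of lung epithelium and released on damage.

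The promoters of 4 members on which the results turn are shown, 3 lymphocyte-associated genes that were lower in irradiated lung (Il7r, Il21r and Il4i1) and Il6ra, which was higher in irradiated liver. They are the 250 bases before the annotated start in RefSeq, build GRCm38.p6, read 5′ to 3′ on the gene's strand. Capitals mark TTCNNNGAA, a spaced palindrome of the STAT type, and AGGAAGT, a core of the ETS type, on either strand. The matches shown do not overlap each other.
Il7r (chr15:9529877-9530126, minus strand): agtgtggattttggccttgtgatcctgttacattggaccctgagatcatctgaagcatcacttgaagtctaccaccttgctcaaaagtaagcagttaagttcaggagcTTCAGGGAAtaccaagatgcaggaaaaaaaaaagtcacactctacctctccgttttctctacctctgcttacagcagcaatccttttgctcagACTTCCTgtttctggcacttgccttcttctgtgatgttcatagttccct
Il21r (chr7:125603179-125603428, plus strand): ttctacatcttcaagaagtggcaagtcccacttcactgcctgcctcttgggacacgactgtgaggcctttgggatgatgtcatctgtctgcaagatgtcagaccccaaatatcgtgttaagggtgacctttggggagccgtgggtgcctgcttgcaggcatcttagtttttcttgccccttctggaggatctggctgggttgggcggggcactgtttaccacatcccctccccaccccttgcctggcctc
Il4i1 (chr7:44836038-44836287, plus strand): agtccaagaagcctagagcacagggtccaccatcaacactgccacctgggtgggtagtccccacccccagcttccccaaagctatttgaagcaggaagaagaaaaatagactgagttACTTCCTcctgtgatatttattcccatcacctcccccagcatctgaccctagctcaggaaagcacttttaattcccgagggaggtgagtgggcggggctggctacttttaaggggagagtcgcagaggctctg
Il6ra (chr3:89913197-89913446, minus strand): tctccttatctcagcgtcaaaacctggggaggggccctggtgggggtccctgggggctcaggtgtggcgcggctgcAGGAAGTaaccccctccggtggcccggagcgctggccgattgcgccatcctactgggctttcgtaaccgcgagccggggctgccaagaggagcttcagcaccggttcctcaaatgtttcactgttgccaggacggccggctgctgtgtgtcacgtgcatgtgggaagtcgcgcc
The first base of TTCNNNGAA in the Il7r promoter lies 142 bases before the start and that of AGGAAGT 49 bases before it, AGGAAGT begins 133 bases before the start in Il4i1 and 174 in Il6ra, and the Il21r window holds neither. TTCNNNGAA was present in 9.72% of the 72 promoters available for 57 of the 74 member genes and in 7.02% of the 32851 promoters of all genes. AGGAAGT was present in 11.1% and 7.69%, and the half-site of p53 in 6.94% and 7.13%. These matches describe the letters of the window and say nothing about binding, which was not measured.

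Facts of the whole data set that touch these results are as follows. Between 46.1% and 54.0% of spots were well above background on a liver array and between 54.1% and 64.0% on a lung array, and no spot was saturated. The 4 lung arrays of the later scanned slide, which hold every 12 Gy lung, had 54.1% to 54.8%, and the other lung arrays 59.2% or more. Detection was thus lowest where the 12 Gy lungs lay, and its part in probes below background at 12 Gy was not tested. The arrays lay on 5 slides which follow the doses closely, so that slide 1 held liver at 0 and 1 Gy with 2 of the 2 Gy livers, slide 2 the remaining livers up to 1 of the 12 Gy livers, slide 3 the other 2 livers at 12 Gy with the lungs at 0 and 1 Gy, slide 4 the lungs at 2 and 4 Gy with 2 at 8 Gy, and slide 5, scanned later, the third 8 Gy lung and all 3 at 12 Gy. In lung, slide and dose cannot be told apart for the comparisons of a dose with 0 Gy, apart from 1 Gy. No sham liver shared a slide with a liver at 4, 8 or 12 Gy, and only the 2 Gy livers lay on both slide 1 and slide 2. The p53 targets checked the irradiation, as 9 of 10 rose at 12 Gy in liver (median 2.00) and 10 of 10 in lung (median 1.82), and the hepatocyte and lung epithelium lists were high in their labelled tissues. A pair of lung arrays stood apart. That of 0 Gy mouse 21 had Dntt, an enzyme of thymocytes, at 13.2 where the other 17 lung arrays reached at most 8.22, and a mean of 11.7 over the T cell list. That of 4 Gy mouse 24 had Alb, serum albumin, at 14.7 where the others reached at most 12.6. Lung values are given with all 18 arrays. For most genes called at a lung dose and for the marker lists at 12 Gy, the result without these 2 arrays is given too. Tissue differences at 0 Gy and most differences of trends are given with all arrays only.

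Markers of lymphocytes moved with dose, and in bulk tissue fewer cells of a type and less RNA per cell cannot be told apart. At 12 Gy in lung, 11 of 12 B cell markers, 12 of 13 T cell markers and 9 of 9 natural killer cell markers fell, with medians of -3.75, -2.73 and -1.77. The mean over the T cell list ranged from 9.84 to 11.7 at 0 Gy and from 7.36 to 7.80 at 12 Gy, and 10 of its 13 genes were still above background at 12 Gy. In lung 11 B cell, 10 T cell and 9 natural killer cell markers fell when the 2 arrays that stand apart were left out, with medians of -3.55, -2.34 and -1.75, and the T cell list had means from 9.83 to 10.2 in the other 2 sham lungs. The natural killer list went from 8.97 to 8.98 at 0 Gy to 6.94 to 7.47 at 12 Gy, and the B cell list from 9.45 to 10.4 to 6.32 to 6.53, with 5 of its 12 genes still above background. In liver, 6 of 11 B cell, 5 of 12 T cell and 3 of 8 natural killer cell markers fell at 12 Gy, with medians of -1.01, -0.81 and -0.70. None of the 10 macrophage and Kupffer cell markers was called in either tissue at 12 Gy. In liver, however, their differences ran from -0.93 to 0.28 with a median of -0.68, and the mean over the list went from between 11.58 and 11.76 at 0 Gy to between 11.06 and 11.11 at 12 Gy, without overlap. In lung their median was 0.12. At 12 Gy none was called of the mast cell, basophil and innate lymphoid markers, 8 tested in lung and 5 in liver. Of the neutrophil markers 1 of 12 rose and 1 fell in lung and 1 of 11 fell in liver, and of the 8 endothelial markers 1 rose in each tissue. In lung 1 of 10 lung epithelium markers fell and no hepatocyte marker was called, and the mean over the hepatocyte list varied between 7.25 and 9.09 at 0 Gy and between 7.94 and 9.87 at 12 Gy. With the 2 arrays that stand apart left out, 3 neutrophil and 2 hepatocyte markers were higher at 12 Gy in lung, 1 endothelial marker was higher and 1 lower, and 0 lung epithelium markers were called. The part of these cells in the changes of interleukin genes was not tested.

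In liver, few interleukin genes changed. The 3 probes that rose were of 2 receptor genes, and receptors gave 49 of the 82 probes tested. The receptor for IL-1 (Il1r1) rose at 8 and 12 Gy and that for IL-6 (Il6ra) at 12 Gy, with calls at 8 Gy that did not last under other settings, the IL-13 decoy receptor Il13ra2 fell at 12 Gy, and Il1b, the ligand of Il1r1 made mainly by macrophages and monocytes, fell along the dose trend. No member was called at 1, 2 or 4 Gy by limma, where 0.0339%, 0.245% and 0.944% of all probes tested were called. An unadjusted limma p below 0.05 was found for 5, 13 and 15 of the 82 members tested at these doses. Among all 38362 probes tested it was found for 2716, 4528 and 6946. At 8 Gy 3 members were higher and 1 was lower, or 3.66% and 1.22% of those tested, against 0.839% and 1.36% of all probes. At 12 Gy again 3 were higher and 1 lower, the same shares, against 0.73% and 1.33%. Along the trend 3 were higher and 2 lower, or 3.66% and 2.44%, against 0.892% and 1.13%. The median difference at 12 Gy was -0.09 over the members and 0.01 over all probes tested.

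Il1r1 (NM_008362) read 9.44, 8.92 and 9.26 in the 3 sham livers, 10.87, 11.05 and 10.07 at 8 Gy, and 10.71, 10.21 and 11.30 at 12 Gy. Every liver at 8 or 12 Gy lay above every liver at lower doses, whose highest value was 9.99 in a mouse at 4 Gy. The difference was 1.53 ± 0.30 at 12 Gy (limma, adjusted p = 0.00627), a fold of 2.89. Il6ra (NM_010559) encodes the subunit that binds IL-6 and was measured by a pair of probes. The brighter read 13.50, 13.06 and 13.01 at 0 Gy and 14.38, 14.34 and 14.49 at 12 Gy, and the other 7.31, 7.18 and 7.22 against 8.02, 8.29 and 9.07. On both probes the 12 Gy livers lay above all sham livers, by 1.21 ± 0.23 (limma, adjusted p = 0.00494) and 1.22 ± 0.24 (limma, adjusted p = 0.00592). The call of the dimmer probe was lost without 12 Gy mouse 26, with a difference of 0.91. At 8 Gy the differences were 1.00 and 1.02, at the edge of a call, and the calls were lost without any 1 of 4 mice on the brighter probe and of 3 mice on the dimmer, and in 5 and 4 of 9 other settings. Within slide 2, where both doses lay together, the 8 Gy livers exceeded the 4 Gy livers by 1.02 for Il1r1 and by 0.42 and 0.78 for Il6ra.

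**Figure D1:**
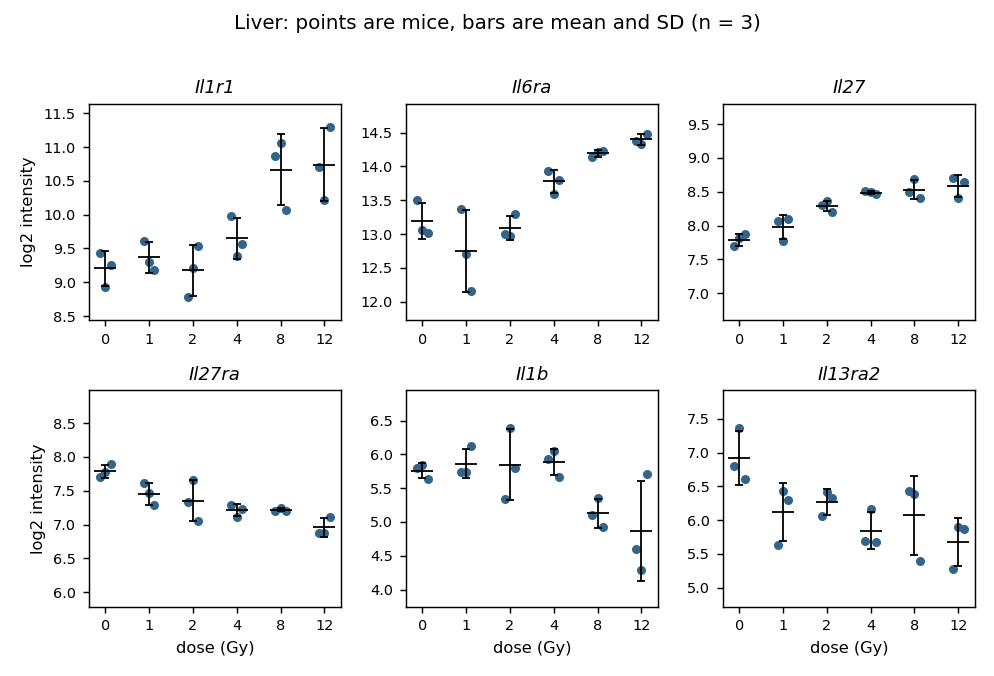
Log2 intensity (vertical axis) by dose in Gy (horizontal axis, evenly spaced) for 6 members in liver, where points are mice and bars are the mean and SD of 3 mice. Il1r1 and Il6ra are higher at 8 and 12 Gy, Il27 levels off from 4 Gy, and Il27ra and Il13ra2 are lower at 12 Gy. Il1b was called along the trend only, and its sham and 12 Gy values overlap.

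Il13ra2 (NM_008356), which binds IL-13 without a known signal of the usual kind, read 6.80, 7.36 and 6.60 at 0 Gy and 5.27, 5.90 and 5.86 at 12 Gy. The groups did not overlap, and the difference was -1.24 ± 0.30 (limma, adjusted p = 0.0206). Without liver 0 Gy mouse 11 or 12 Gy mouse 6 it was no longer called. The other probe of this gene was below background on all but 1 liver array. Il1b (NM_008361) fell along the trend, with -1.11 ± 0.28 (limma, adjusted p = 0.0159) and -1.07 ± 0.24 (limma, adjusted p = 0.0088) on its 2 probes, from 5.80, 5.85 and 5.64 at 0 Gy to 4.61, 4.30 and 5.70 at 12 Gy on the probe A_66_P114500. These calls were lost without 12 Gy mouse 6 or mouse 16. The probe A_51_P212782 was above background on 15 of the 18 liver arrays and A_66_P114500 on 12, so part of the values lie at background and the size of the fall is uncertain. The macrophage and Kupffer cell list had a trend median of -0.49 in liver, and its part in the Il1b result was not tested. Il1rl1, the receptor for IL-33, was called lower at 8 Gy on 1 probe (limma, adjusted p = 0.00465), but that probe was above background on a single liver array, of sham mouse 11, the fall was at least 1.15-fold, and the call was lost without that mouse.

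Smaller changes concerned the ligand and the receptor of 1 pair. Il27, a subunit of IL-27, read 7.69, 7.81 and 7.87 at 0 Gy and 8.71, 8.41 and 8.64 at 12 Gy. The adjusted p passed at 4, 8 and 12 Gy with differences of 0.70, 0.74 and 0.79 ± 0.12 (limma, adjusted p = 0.000903 at 12 Gy), under the size needed for a call. Its receptor Il27ra passed in the other direction at the same doses, with -0.57, -0.57 and -0.83 ± 0.14 (limma, adjusted p = 0.00247 at 12 Gy), from 7.70, 7.77 and 7.89 at 0 Gy to 6.88, 6.88 and 7.12. The sham and 12 Gy values overlapped for neither gene, and both genes moved by less than the threshold for a call. Il2rg, the common gamma chain, had a difference of -0.79 ± 0.15 at 12 Gy (limma, adjusted p = 0.00635). Il6st, which pairs with Il6ra, had one of -0.34 ± 0.12 (limma, adjusted p = 0.0982) on its brighter probe. Il18 and Il15, made by liver cells as well as leukocytes, were not called at any dose, with -0.12 ± 0.15 for Il18 and -0.09 ± 0.21 and -0.17 ± 0.19 for the probes of Il15 at 12 Gy. Every liver call was lost with slide as a fixed term, where Il1r1 kept a difference of 0.97 at 12 Gy (limma, adjusted p = 0.566) and Il6ra of 0.88 (limma, adjusted p = 0.485), while with slide as a random block all 5 probes called at any dose remained called.

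In lung, most of the members that changed were lower, and 10 of the 15 lower probes at 12 Gy were of receptors, which gave 53 of the 98 probes tested. The count of lower probes grew from 2 at 2 Gy to 5 at 4 Gy, 12 at 8 Gy and 15 at 12 Gy, of 98 tested. Among all probes tested 0.375%, 1.22%, 1.99% and 4.27% were lower at these doses. Higher members numbered 0 at 2, 4 and 8 Gy, against 0.0705%, 0.246% and 0.528% of all probes, and 3 at 12 Gy, which is 3.06% of the members and near the 3.02% of all probes. Of these 3, Il5 is a member only through 1 array, of a 12 Gy lung. Among the 15 lower probes, that of Il3 was above background on 1 lung array in all and the second of Il5ra on 2. These probes were tested in lung only through those arrays, so their calls are no evidence of a fall. No member was called at 1 Gy by limma, against 0.0227% of all probes. At that dose 12 of the 98 members had an unadjusted limma p below 0.05, as did 2426 of all 43979 probes. Along the trend 14 members were lower and 2 higher, against 4.31% and 2.7%. Of the 53 receptor and soluble receptor probes 1, of Il22ra2, was higher at 12 Gy, and of the 33 probes of ligands 3 were lower and 2 higher. The medians at 12 Gy were nevertheless close, with -0.05 over the members and 0.09 over all probes. Without the 2 arrays that stand apart, 0 members were lower at 2 Gy, 5 at 4 Gy, 10 at 8 Gy and 15 at 12 Gy, of 94 tested, against 0.188%, 0.684%, 1.48% and 3.35% of all probes.

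Receptors with the common gamma chain included the members with the largest differences. Il7r (NM_001355680), the IL-7 receptor of T cells and their precursors, read 9.26, 8.70 and 9.27 in sham lungs, 6.90, 6.65 and 7.46 at 8 Gy, and 6.24, 7.69 and 6.44 at 12 Gy. From 2 Gy on, every lung lay below every sham lung. It fell by 2.29 ± 0.32 at 12 Gy (limma, adjusted p = 0.000242), a fold of 4.88, and was also called at 4 and 8 Gy. The 4 Gy call was lost without the 2 arrays that stand apart, where the differences were -1.52 at 4 Gy (limma, adjusted p = 0.137) and -2.20 at 12 Gy (limma, adjusted p = 0.00273).

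Il21r (NM_021887), the receptor for IL-21 on B, T and natural killer cells, read 8.25, 8.29 and 9.61 at 0 Gy, the highest being mouse 21, and 7.25, 7.22 and 7.17 already at 2 Gy. At 8 Gy it read 5.98, 6.07 and 6.59 and at 12 Gy 6.65, 6.38 and 6.46. The values at 12 Gy were no lower than those at 8 Gy. The differences were -1.50 at 2 Gy (limma, adjusted p = 0.0242), -2.20 at 4 Gy (limma, adjusted p = 0.000437), -2.50 at 8 Gy (limma, adjusted p = 6.04e-05) and -2.22 at 12 Gy (limma, adjusted p = 0.000135), each ± 0.29. Without the 2 arrays that stand apart they were -1.06 at 2 Gy (limma, adjusted p = 0.0554) and -1.78 at 12 Gy (limma, adjusted p = 0.000158). Within slides, the 1 Gy lungs minus the sham lungs gave -1.17, and the 2 lungs at 8 Gy minus the 2 Gy lungs gave -1.18.

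Il2rb (NM_008368), which natural killer and memory T cells use for IL-2 and IL-15, read 9.45, 8.86 and 9.17 at 0 Gy and 7.50, 8.50 and 7.76 at 12 Gy. Sham and 12 Gy lungs did not overlap, and the difference was -1.24 ± 0.28 (limma, adjusted p = 0.00706). It was -1.24 as well without the 2 arrays that stand apart (limma, adjusted p = 0.0292), where the 8 Gy call was lost (limma, adjusted p = 0.074). The dose trend of Il2rb was the only lung trend of a member that was still called with slide as a fixed term. Il9r (NM_001134458), the IL-9 receptor of T cells, B cells and mast cells, was above background on all 3 sham lungs (5.83, 5.72 and 6.90) and on none at 8 or 12 Gy, so that the fall at 12 Gy was at least 2.15-fold (limma, adjusted p = 0.00102). Without the 2 arrays that stand apart its 12 Gy difference moved from -1.87 to -1.48 (limma, adjusted p = 0.00216). Il2rg itself (12.79, 13.34 and 13.49 at 0 Gy) had smaller differences of -0.86, -0.79 and -0.87 ± 0.21 at 4, 8 and 12 Gy (limma, adjusted p = 0.0103 at 12 Gy). Il4ra, which is found on many cell types, had a difference of -0.08 ± 0.14 at 12 Gy on its brighter probe, with sham and 12 Gy lungs between 12.82 and 13.10. The ligands of this family gave no call, and Il15 differed by 0.00 and 0.11 ± 0.16.

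**Figure D2:**
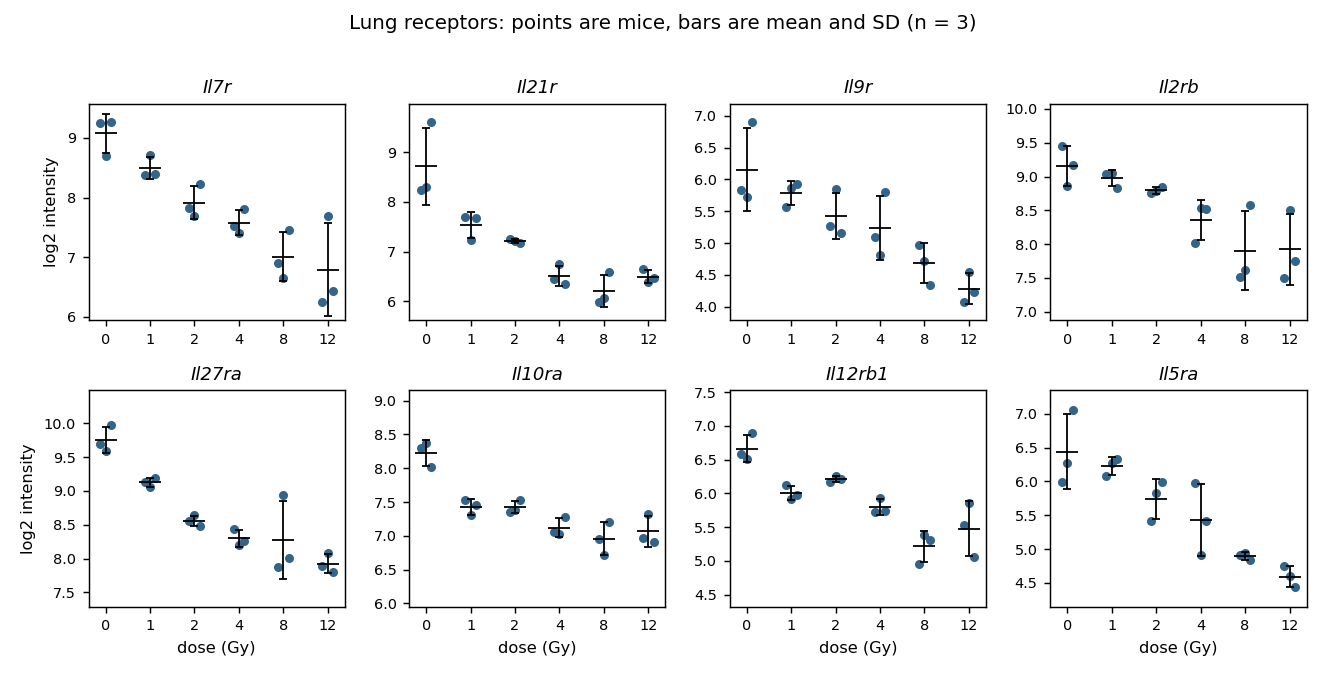
Log2 intensity (vertical axis) by dose in Gy (horizontal axis, evenly spaced) for 8 receptor genes in lung, where points are mice and bars are the mean and SD of 3 mice. The mean of every gene is lower at 8 and 12 Gy than at 0 Gy, Il21r and Il27ra are called from 2 Gy, and Il9r, Il12rb1 and Il5ra are below background at 8 and 12 Gy.

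Receptors of the IL-6, IL-10 and IL-12 groups followed. Il27ra (NM_016671), the IL-27 receptor of T and natural killer cells, read 9.69, 9.59 and 9.97 at 0 Gy, 8.55, 8.64 and 8.49 at 2 Gy, and 7.89, 8.08 and 7.80 at 12 Gy. It was called at 2, 4, 8 and 12 Gy, with -1.19, -1.45, -1.48 and -1.83 ± 0.21 (limma, adjusted p = 5.56e-05 at 12 Gy), and without the 2 arrays that stand apart at 12 Gy with -1.73 (limma, adjusted p = 0.000938) but not at 2 Gy (limma, adjusted p = 0.136). At 8 Gy 1 lung, of mouse 15 with 8.93, lay above the lungs at 2 and 4 Gy. Il10ra (NM_008348), which binds IL-10 on leukocytes, had a pair of probes that both fell at 12 Gy, with differences of -1.16 ± 0.16 (limma, adjusted p = 0.000256) and -1.23 ± 0.23 (limma, adjusted p = 0.00223). The dimmer of these read 8.30, 8.38 and 8.01 at 0 Gy and 7.53, 7.30 and 7.45 at 1 Gy, and no irradiated lung overlapped the sham lungs. Both were still called at 12 Gy without the 2 arrays that stand apart, with -1.28 and -1.45, and with slide as a random block 1 was not (-1.12, limma, adjusted p = 0.0501). Il10rb, its partner, was not called in lung. Il12rb1 (NM_008353), shared by the IL-12 and IL-23 receptors, read 6.58, 6.51 and 6.89 at 0 Gy and was below background on all lungs at 8 and 12 Gy, a fall of at least 2.72-fold (limma, adjusted p = 0.000188) and 2.10-fold (limma, adjusted p = 0.000676). The 12 Gy call was lost without 12 Gy mouse 26 and with a normexp offset of 50 or a joint normalization, and not without the 2 arrays that stand apart (-1.07, limma, adjusted p = 0.00722).

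Il5ra (NM_008370), the IL-5 receptor of eosinophils and some B cells, read 5.99, 6.27 and 7.06 at 0 Gy and was below background on every lung at 8 and 12 Gy, a fall of at least 2.59-fold at 12 Gy (limma, adjusted p = 0.000364), and called also without the 2 arrays that stand apart (-1.53, limma, adjusted p = 0.00301). Its second probe was above background on 2 sham lungs only, and its call was lost without sham mouse 11 or 21 or 12 Gy mouse 16 and without the 2 arrays that stand apart. Il17rb, which binds IL-25, was called at 8 Gy only (at least 1.51-fold lower, limma, adjusted p = 0.0193), and this call was lost in 7 of 10 other settings, among them leaving out the 2 arrays that stand apart. Il17ra, the receptor for IL-17A found on many cell types, had differences of -0.78, -0.69 and -0.77 ± 0.15 at 4, 8 and 12 Gy (limma, adjusted p = 0.00233 at 12 Gy). Il18rap, the signalling chain for IL-18 on T and natural killer cells, had -0.76 and -0.60 ± 0.20 at 8 and 12 Gy (limma, adjusted p = 0.0468 at 12 Gy).

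Among ligands and related proteins in lung, Il33, Il12b, Il16 and the enzyme Il4i1 were lower. Il4i1 (NM_010215), made by B cells and antigen-presenting cells, read 9.77, 10.17 and 11.01 at 0 Gy, the highest again being mouse 21, and 8.25, 8.43 and 7.42 at 12 Gy. Its difference was -2.29 ± 0.30 (limma, adjusted p = 0.000133), and -1.95 without the 2 arrays that stand apart (limma, adjusted p = 0.000652). Il16 (NM_010551), a chemoattractant for CD4+ T cells that lymphocytes make, read 9.54, 9.76 and 9.95 at 0 Gy and 8.35, 8.60 and 8.68 at 12 Gy. Those groups did not overlap and differed by -1.21 ± 0.25 (limma, adjusted p = 0.00439), while its second probe lay near background. The call was lost with slide as a random block (-1.05, limma, adjusted p = 0.0793) and kept without the 2 arrays that stand apart (-1.11, limma, adjusted p = 0.017).

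Il33 (NM_001360725) read 12.32, 12.46 and 12.24 in sham lungs, 12.66, 12.81 and 12.67 at 1 Gy, 12.03, 11.73 and 11.96 at 8 Gy, and 11.50 and 10.67 at 12 Gy, where the spot of mouse 26 was an outlier and was left out of the fit. Its level was lower than in sham lungs in every lung at 8 Gy and in the 2 measured at 12 Gy, with differences of -0.43 ± 0.22 (limma, adjusted p = 0.349) and -1.26 ± 0.24 (limma, adjusted p = 0.00305). The 12 Gy call was lost without mouse 16, and the second probe, with all 3 mice, gave -0.59 ± 0.35 (limma, adjusted p = 0.253). Without the 2 arrays that stand apart the first probe gave -1.31 (limma, adjusted p = 0.0106). Il12b (NM_001303244), the subunit shared by IL-12 and IL-23, read 5.88, 6.35 and 6.70 at 0 Gy and was below background at 12 Gy, at least 2.09-fold lower (limma, adjusted p = 0.0051). This call was lost with slide as a random block, a joint normalization or a normexp offset of 50, and not without the 2 arrays that stand apart (-1.08, limma, adjusted p = 0.0283). The other IL-12 subunit, Il12a, had -0.97 ± 0.28 at 12 Gy (limma, adjusted p = 0.0216), just under the size needed for a call. Il3, a growth factor from T cells, was called lower at 12 Gy (limma, adjusted p = 0.0222), but its probe was above background on 1 lung array in all and no fold can be given.

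Il1b did not follow a straight line in lung. On the probe A_66_P114500 it read 5.87, 7.47 and 7.58 at 0 Gy, 7.88, 7.96 and 8.12 at 1 Gy, 7.34, 8.12 and 8.40 at 4 Gy, 5.95, 6.43 and 6.55 at 8 Gy, and 6.42, 6.52 and 6.73 at 12 Gy. The lungs at 1, 2 and 4 Gy lay above all those at 8 and 12 Gy, and the sham lungs overlapped both. No dose was called against 0 Gy, and the trend of -1.27 ± 0.42 (limma, adjusted p = 0.0287) was lost without 12 Gy mouse 6 or mouse 16 and without the 4 arrays of the later scanned slide. On slide 4 alone the mean of the 2 lungs at 8 Gy minus that of the 4 Gy lungs was -1.76, and -1.46 on the second probe. Il1rn, the receptor antagonist, had a difference of -0.90 ± 0.31 at 12 Gy (limma, adjusted p = 0.0503). Il1f6, now called Il36a, varied widely between lungs of the same dose, with 3.99, 9.22 and 4.23 in the sham lungs on 1 probe and 2.02, 8.99 and 3.35 on the other, and was not called.

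**Figure D3:**
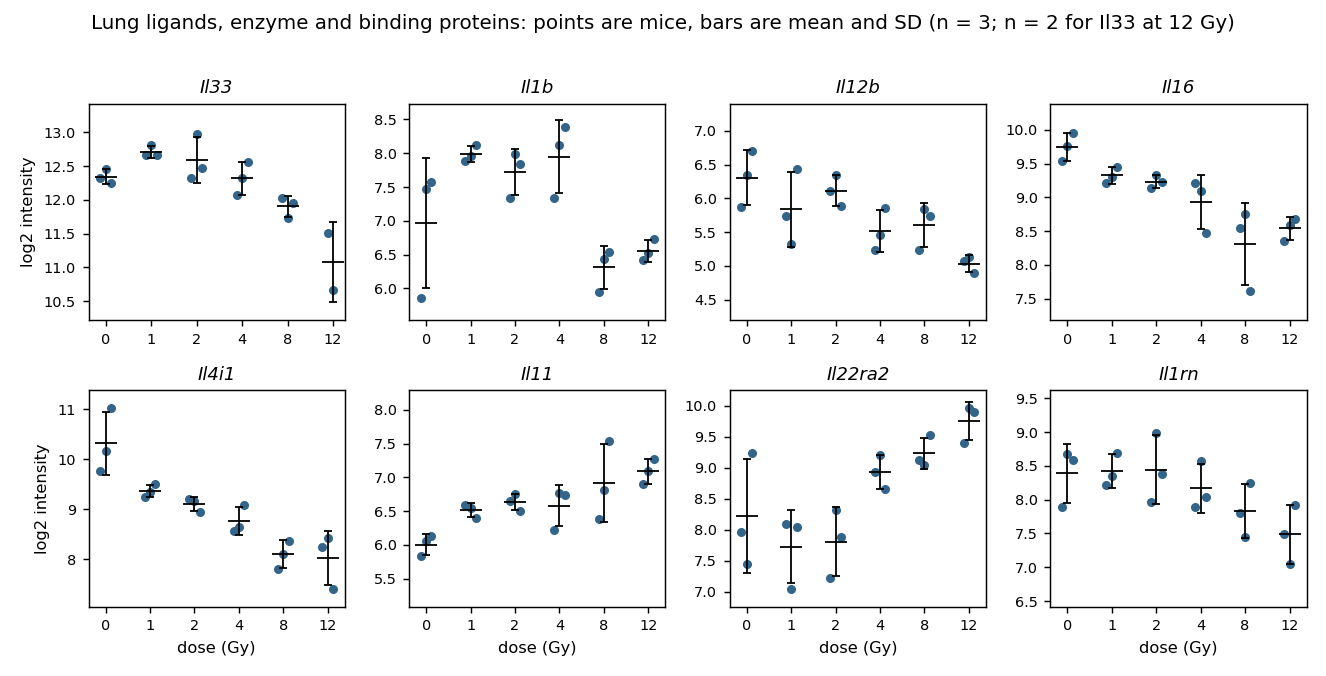
Log2 intensity (vertical axis) by dose in Gy (horizontal axis, evenly spaced) for ligands, the enzyme Il4i1 and the binding proteins Il22ra2 and Il1rn in lung, where points are mice and bars are the mean and SD of 3 mice, or of 2 for Il33 at 12 Gy. Il33, Il12b, Il16 and Il4i1 are lower at 12 Gy, Il11 and Il22ra2 are higher, and Il1b drops between 4 and 8 Gy.

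In all 3 genes were called higher in lung, all at 12 Gy. Il22ra2 (NM_178258), a soluble protein that binds IL-22 and keeps it from its receptor, read 7.97, 7.45 and 9.23 at 0 Gy, the highest being mouse 21, and 9.40, 9.96 and 9.91 at 12 Gy. Sham and 12 Gy lungs did not overlap, and all lungs at 4 Gy or more lay above all those at 1 and 2 Gy. It rose by 1.53 ± 0.40 (limma, adjusted p = 0.0145), or 2.05 without the 2 arrays that stand apart (limma, adjusted p = 0.00343), but the call was lost without sham mouse 11 or 12 Gy mouse 16 and with slide as a random block (1.47, limma, adjusted p = 0.15). Il11 (NM_008350), a cytokine of stromal cells and epithelium that acts through gp130, read 5.83, 6.05 and 6.13 at 0 Gy and 6.91, 7.09 and 7.27 at 12 Gy. All irradiated lungs lay above all sham lungs, and the difference at 12 Gy was 1.08 ± 0.23 (limma, adjusted p = 0.00513), a call that was lost without sham mouse 1 or 12 Gy mouse 26, with slide as a random block (0.94, limma, adjusted p = 0.0884), with a joint normalization and with a normexp offset of 50. The difference of Il11 without the 2 arrays that stand apart was 1.15 (limma, adjusted p = 0.017). Il5, the ligand of Il5ra, was above background on 1 lung array only, of 12 Gy mouse 26 with 7.11, and on no liver array. Il5 is a member only through that array, so its call at 12 Gy is no evidence of a rise. The call was lost in 8 of 9 other settings.

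The genes that carry interleukin signals onward were counted as a list of 32, which holds JAK kinases, STAT factors, their inhibitors, the IL-1 pathway and cytokine receptor chains such as Lifr. In lung 1 of the 32 was lower at 12 Gy, against 4.27% of all probes, and 3 were lower at 8 Gy, against 1.99%. The 12 Gy gene was Stat4, the STAT factor of IL-12 signalling in T and natural killer cells, with -1.49 ± 0.25 (limma, adjusted p = 0.00117). At 8 Gy Stat4 had -1.55 ± 0.25 (limma, adjusted p = 0.00156), and Socs1, an inhibitor of JAK kinases, had -1.01 ± 0.20 (limma, adjusted p = 0.00585). Stat4 was, without the 2 arrays that stand apart, still called at both doses, with -1.25 at 12 Gy (limma, adjusted p = 0.00963), and Socs1 was not (-0.84, limma, adjusted p = 0.0525). In liver 2 of the 32 were lower at 12 Gy, against 1.33% of all probes, among them Lifr, the cell surface receptor for leukaemia inhibitory factor, with -1.47 ± 0.19 (limma, adjusted p = 0.00044). None of the 32 was higher at 8 or 12 Gy in either tissue. The median over the 32 genes at 12 Gy was 0.03 in lung and -0.19 in liver.

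Whether the response to dose differed between lung and liver was tested as the difference of the 2 trends over all 36 arrays, normalized together. The trend was called more positive in lung for 2 members and more negative for 6, of 105, against 3.57% and 3.62% of all probes. In both directions together that is 7.62% of the members, near the 7.19% of all probes. Il1r1 rose in liver but read 10.19, 10.06 and 9.72 in sham lungs and 10.34, 9.86 and 10.15 at 12 Gy. The lung groups overlapped, and the lung trend minus the liver trend was -1.51 ± 0.28 (limma, adjusted p = 0.000347). For Il1rn, no dose was called in either tissue, with liver at 7.30, 7.32 and 8.05 in sham mice and 7.93, 8.20 and 8.42 at 12 Gy, and lung at 7.89, 8.68 and 8.59 and then 7.49, 7.05 and 7.93. The difference of its trends, lung minus liver, was -1.73 ± 0.41 (limma, adjusted p = 0.00351) and on the second probe -1.19 ± 0.33 (limma, adjusted p = 0.0105).

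Il33 (-1.53 ± 0.33, limma, adjusted p = 0.00156), Il5ra (-1.99 ± 0.61, limma, adjusted p = 0.0223) and Il9r (-1.12 ± 0.38, limma, adjusted p = 0.0399) had negative differences of trends. In liver Il33 had a trend of 0.01 ± 0.21, but the probe of Il9r was above background on no liver array and that of Il5ra on 1, at 8 Gy with 7.75, so that for these 2 genes the liver trend lies at background and the value is no measured difference in response. The Il9r difference was lost without the 2 arrays that stand apart, at -0.94 (limma, adjusted p = 0.0717). The difference of trends for Il22ra2 was 1.97 ± 0.44 (limma, adjusted p = 0.0024), and as this probe too was above background on no liver array, the same holds for it. Il17rd, a receptor-like protein of the IL-17 family known as Sef, was called in neither tissue, with 11.59, 11.64 and 11.39 at 12 Gy against 11.39, 10.59 and 10.97 in sham lungs and 5.27, 5.49 and 5.13 against 6.00, 5.82 and 5.88 in liver. Its trends differed by 1.27 ± 0.26 (limma, adjusted p = 0.00104), and its second probe by -0.44 ± 0.26, not called. The called probe was above background on 11 of the 18 liver arrays, so its liver trend lies partly at background. Without the 4 lung arrays of the later scanned slide, none of these 8 differences was called, while the values ran from -2.34 for Il5ra to 1.96 for Il22ra2, with -1.52 for Il1r1 (limma, adjusted p = 0.0694). Il7r, Il21r and Il4i1, the genes that fell most in lung, were not called different from liver, where Il7r and Il21r were mostly below background.

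**Figure D4:**
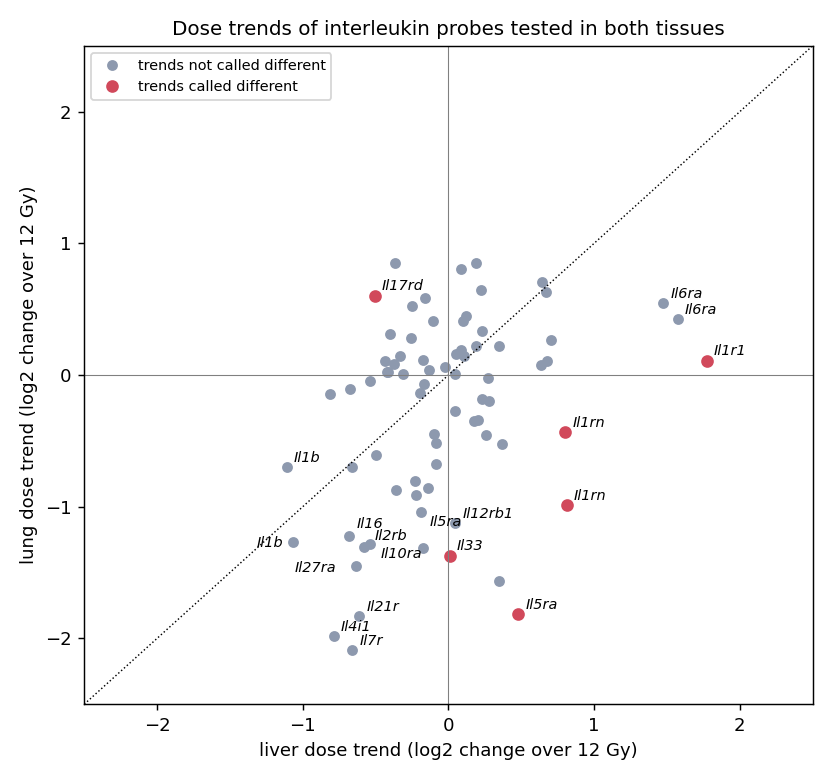
Dose trend in lung (vertical axis, log2 change over 12 Gy) against that in liver (horizontal axis, same unit) for the 75 member probes tested in both tissues. Red points are the 6 plotted probes whose trends were called different, the dotted line marks equal trends, and labelled points were called in a trend test of either tissue or in their difference, among them Il1r1 with 1.77 in liver and 0.11 in lung.

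At 0 Gy, on the joint scale, 24 of 105 members were higher in lung and 16 higher in liver, which is 22.9% and 15.2% of the members against 18% and 16.8% of all probes. Il18r1, the receptor for IL-18, read 11.32, 11.69 and 11.28 in sham lungs and was below background in sham livers, at least 103-fold higher in lung (limma, adjusted p = 2.56e-16). Il33 read 11.93, 12.08 and 11.84 in lung and 8.07, 7.19 and 8.06 in liver (4.18 ± 0.25), and its receptor Il1rl1 was at least 7.72-fold higher in lung on the probe A_55_P2027737. Some members of the IL-17 family were higher in lung too, with Il17d, a ligand, at least 16.1-fold. Il17re, a receptor for IL-17C on epithelium, was higher by 4.64 ± 0.23, and Il17rd by 3.87 ± 0.22 on the probe A_51_P253732. This family went both ways, as 3 of its 9 receptor probes were higher in lung and 3 lower. Of its 4 ligand probes 1 was higher. Il1rl2, the receptor for IL-36, was higher by 3.22 ± 0.19 on the probe A_52_P261184, and Il22ra2 at least 8.92-fold. The 3 lungs lay above the 3 livers for each gene named here as higher in lung, and these genes were picked by that difference.

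Higher in sham liver were the IL-15 receptor Il15ra, with lung minus liver differences of -2.74, -2.77 and -2.89 on its 3 probes, and the IL-18 binding protein Il18bp, with -2.41 and -2.65 on its 2 probes. For Il15ra the brightest probe read 12.97, 12.90 and 12.93 in liver and 10.14, 9.93 and 10.07 in lung. Il17rb (-3.43 ± 0.19), Il13ra2 (-2.64 ± 0.27) and Il27 (-2.10 ± 0.13) were higher in liver as well. For Il1rap, the accessory chain of the IL-1 receptor, the probes disagreed. A_52_P467232, designed on NM_134103, read 13.16, 12.55 and 12.45 in liver and 5.70, 5.75 and 5.18 in lung (-7.17 ± 0.23, limma, adjusted p = 4.69e-19), while A_55_P2807476, on NM_008364, read 10.53, 9.74 and 9.85 in liver and 10.29, 10.23 and 10.20 in lung (0.20 ± 0.18, limma, adjusted p = 0.397). These are probes of different transcripts of the gene, and the difference between liver and lung was seen on 1 of them. Probes of Il6ra and of Il1rn also disagreed, although in each gene both probes are named by the same transcript. Il6ra was higher in liver on the dimmer probe (-1.75 ± 0.23) and not called on the brighter (-0.31 ± 0.28), and Il1rn had -1.51 ± 0.24 and -0.59 ± 0.35.

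**Figure D5:**
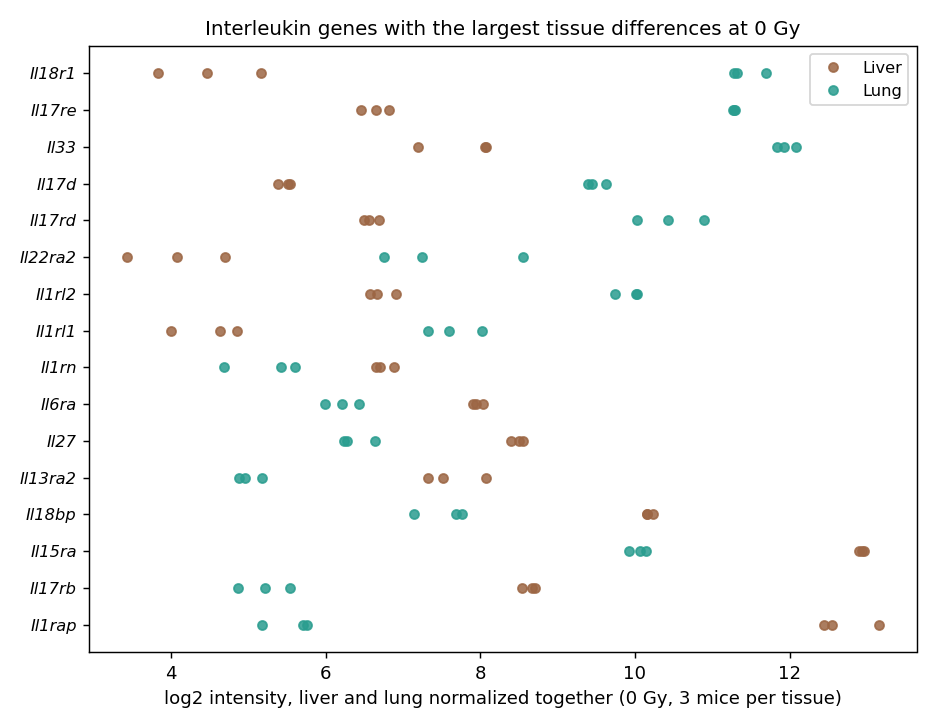
Log2 intensity on the joint scale (horizontal axis) in 3 sham livers and 3 sham lungs (points) for the 16 genes with the largest called differences at 0 Gy (vertical axis). The mean differences run from 6.95 for Il18r1, higher in lung, to -7.17 for Il1rap, higher in liver. The tissues overlap for none of the 16 genes, which were picked by the size of this difference in the same samples. The lack of overlap is therefore no further support.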

How the data were processed

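Poly(A) RNA of 36 liver and lung samples was amplified, labelled with a fluorescent dye and hybridised to 1-colour Agilent mRNA arrays. The deposited scanner files, made by the authors with Agilent Feature Extraction 11.5.1.1, give a median spot intensity, a local background intensity, a processed intensity and quality flags (other) for every spot. A deposited value table of the same arrays, with intensity values divided by a per-array scale, was made by the authors by a procedure not given in the sources used here, and served as an alternative only. The number of arrays and mice limits the precision.

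Intensities were background corrected with normexp on the median and background signals (offset 0), control spots were left out and outlier spots set to missing, arrays were quantile normalized within a tissue, and log2 values of a probe's spots were averaged. Probes well above background in at least 1 array of a fit were tested with limma 3.58.1 in R 4.3.3, with 6 dose groups of 3 mice in each tissue, 38362 probes in liver and 43979 in lung. The dose trend was a straight line over dose. Differences between tissues came from all 36 arrays normalized together (47376 probes), so their values differ slightly from those within a tissue. p-values were adjusted by Benjamini-Hochberg over all probes of a fit, and a call needed a log2 difference above 1 in size and an adjusted p below 0.05. The script was checked on simulated data. Where a probe was not well above background on any array of a group, "at least N-fold" sets the mean of the brighter group against a floor for the dimmer one, which on each array is the dimmest signal flagged as above background or, if larger, the value of the probe itself.

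Probes were named through RefSeq accessions (34566 probes). The files do not give transcript positions in the build of that table, so none is printed for genes. Named in the text are all member genes called in a dose comparison, trend or trend difference, genes that passed the adjusted p at 2 or more doses at a smaller fold, the 8 genes with the largest called difference at 0 Gy in each direction, Il1r1, and up to 2 ligand or receptor partners per family, by the probe with the highest mean or the called probe. Some second probes, marker genes and per-mouse outliers were named after their values were seen. The members, gene lists and tests were chosen with earlier results of these data known. Alternatives were another normexp offset, 75th percentile scaling of the processed signal, the deposited value table, other filters, outlier spots kept, a joint normalization, slide as a fixed or random term, mouse as a block, and each mouse left out. The alternatives without the later scanned slide and without the 2 lung arrays that stand apart were chosen after seeing the data. Liver and lung samples with the same number were taken to be from the same mouse. Their deviations from the group means correlated between -0.052 and 0.050 in 18 pairs, none above 0.1. The microRNA arrays were not used here. Of the genes for interleukin signalling inside the cell, 1 is not reported here.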

Additional observations from a re-analysis of the deposited data

Results flagged for a closer look

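The dose trend differed between lung and liver on 8 probes of 7 genes, by the test of the difference itself (limma on 36 arrays, lung minus liver, log2 change over 12 Gy). Of the 105 members 2 had a higher trend in lung and 6 a lower one, against 3.57% and 3.62% of all probes. Together these are 7.62% of the members, near the 7.19% of all probes. The trend of Il1r1 was lower in lung (-1.51 ± 0.28, adjusted p = 0.000347), as it rose in liver and had a lung trend of 0.11. The trend of Il33 was lower in lung (-1.53 ± 0.33, adjusted p = 0.00156), where its level was called lower at 12 Gy. That 12 Gy call rests on the 2 lungs measured and was lost without 12 Gy mouse 16. The second probe of Il33 was called at no lung dose. The values of Il5ra (-1.99 ± 0.61, adjusted p = 0.0223) and Il9r (-1.12 ± 0.38, adjusted p = 0.0399) set a lung trend against a liver trend at background, and are no measured difference in response. The probe of Il9r was above background on no liver array, and that of Il5ra on 1, at 8 Gy with 7.75, while the other livers reached at most 5.08. Both probes of Il1rn gave a lower trend in lung, -1.73 ± 0.41 (adjusted p = 0.00351) and -1.19 ± 0.33 (adjusted p = 0.0105). The trend of Il17rd was higher in lung (1.27 ± 0.26, adjusted p = 0.00104) on a probe above background on 11 of the 18 liver arrays, so its liver trend lies partly at background. The second probe of Il17rd had a difference of the opposite sign and was not called. The value of Il22ra2 (1.97 ± 0.44, adjusted p = 0.0024) again rests on a probe above background on no liver array. Without the 4 lung arrays of the later scanned slide, which hold every 12 Gy lung, none of the 8 was called, with values of -1.52 for Il1r1 (adjusted p = 0.0694), -1.08 for Il33, 0.99 for Il17rd, -2.34 for Il5ra, -1.17 for Il9r and 1.96 for Il22ra2. Without the 2 lung arrays that stand apart the difference for Il9r was -0.94 (adjusted p = 0.0717) and no longer called.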

How the results depend on the processing

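The counts of called interleukin probes were 5 in liver and 19 in lung at any dose, 5 and 16 for the trends, 8 for the difference of trends and 40 between the tissues at 0 Gy. A normexp offset of 50, which shrinks differences of dim probes, gave 3, 10, 3, 9 and 5 for all but the last. The 75th percentile scaling gave 11 at any liver dose, 27 lung trends, 19 differences of trends and 62 at 0 Gy. The deposited values gave 10 at any liver dose, 25 lung trends and 19 differences of trends. Joint normalization gave 9 at any liver dose. With slide as a fixed term no liver dose and no liver trend was called (0 probes each), and 1 lung trend, and lung doses could not be fitted. With slide as a random block 12 lung probes were called at any dose. Without the later scanned slide 12 lung probes were called at any dose and 3 differences of trends, of which 0 were among the 8. Except for the constructions named, the cause of these shifts was not tested. Leaving out each mouse in turn gave 3 to 7 and 17 to 21 probes at any dose, 3 to 5 and 13 to 19 trends, 7 to 10 differences of trends and 38 to 42 probes at 0 Gy. Direction was followed for 46 results, all called with a log2 difference above 1 in size. None of them changed direction in an alternative run where its probe was tested, which was likely from the start. Genes named with smaller changes were not followed in this way. With mouse as a replicate block, pairing liver and lung of a number, the counts stayed at 8 and 40, and the same 8 and 40 probes were called. The correlation within a mouse was estimated at -0.000215, so this fit is nearly the one without a block and could hardly move the counts. Without the 2 lung arrays that stand apart, 17 lung probes were called at any dose and 13 trends. A probe near background has only a bound, and 23 of the 105 members were above background on no liver array.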

Other observations

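Single arrays held members far above the rest of their group. In liver Il4i1 read 10.47 in 2 Gy mouse 13, where the other livers lay between 6.51 and 7.78, and Il10ra read 8.45 on 1 probe in 8 Gy mouse 15, where the others reached at most 6.25. In lung Il1f6 (Il36a) read 9.22 in sham mouse 11 and 9.71 in 2 Gy mouse 13, and 3.99 and 4.23 in the other sham lungs. The 2 probes of Il1f6 rose and fell together over the lung arrays, from 2.02 to 9.48 on the other probe.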
